A study of Mus musculus with 12 samples.

Results

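The 6 marginal-zone genes Reln, Trp73, Lhx1, Lhx5, Ndnf and Calb2 and 4 genes of the subplate (Nr4a2, Cplx3, Ccn2 and Nxph4) were followed through RNA sequencing of the early postnatal mouse cortex with and without Egfr, the epidermal growth factor receptor. They were chosen by name as markers of Cajal-Retzius and subplate neurons, with earlier results of these data known. They make up 10 of the 55357 genes in the deposited tables. All 10 had counts in each of the 12 libraries and were kept by the filter on low counts in all 6 comparisons.

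The marginal zone and the subplate hold the earliest-born neurons of the cerebral cortex, above and below the cortical plate. Cajal-Retzius cells lie at the surface of the cortex and in the hippocampal marginal zones, secrete reelin, a glycoprotein that guides the layering of migrating neurons, and are in large part lost during the first postnatal weeks in the mouse. Subplate neurons help thalamic axons to reach the cortex before they innervate the cortical plate, and persist in the mouse as a thin band of cells beneath the deepest layer.

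The cKO animals (T3, T6 and T80) carried 2 floxed Egfr alleles and a Nestin-driven recombinase, which acts in neural progenitors. The controls (T4, T8 and T70) are named EgfrF/+ in the protocol and WT in the genotype label, and no label states if the recombinase is present in them, so that the loss of Egfr and the presence of the recombinase cannot be told apart. All animals were taken at postnatal day 5. Cortex and hippocampal formation of each animal were dissected together and divided into a caudal and a rostral piece, giving 4 groups of 3 libraries. The labels do not spell out sex or litter.

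Egfr was at 9.91 ± 1.20 CPM in cKO animals and at 42.8 ± 2.76 CPM in control animals (CPM, the caudal and rostral counts of an animal summed and scaled to library size; SD, n = 3 each). It fell by 2.10 on the log2 scale (SE 0.11, edgeR adjusted p = 0.0019). Total counts ran between 43810458 and 87170315 per library, and the lowest raw values of the members were 18 counts of Lhx1 and 20 of Lhx5, both in the rostral library of control T4. Markers of cortical and hippocampal excitatory neurons (Emx1, Neurod2, Neurod6, Bcl11b, Slc17a7 and Tbr1) were detected in every library, with 12.4 CPM of Emx1 as the lowest value.

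By a score made of gene expression, the cKO libraries did not all follow their region labels. A region score was built from 2488 genes that differed between the control pieces, without the 10 members, and set to 0 for the mean control rostral library and to 1 for the mean control caudal library. The cKO caudal libraries scored 0.562 (T3), 1.2 (T6) and 0.79 (T80), and the score lay between 0.965 and 1.04 for the control caudal ones. The cKO rostral libraries scored 0.85 (T3), -0.0733 (T6) and 0.636 (T80), and the score lay between -0.0932 and 0.0694 for the control rostral ones. The piece of T3 labelled rostral thus scored above the piece labelled caudal. The genes of the score were chosen in these same control libraries, so the control ranges are narrow in part by construction. The cKO libraries had no part in that choice. The rostral library of T6 also stood apart in its mitochondrial share, 8.18% of counts against 1.85% to 3.98% in the other 11 libraries. For these reasons the sum of both pieces of each animal, which does not depend on the region labels, is the main comparison of genotype. Values without T6 are given by gene where members newly passed. Values without T3 are given mostly within ranges over each animal left out.

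The positions of the genes on GRCm39 are those of the deposited tables. Reln (ENSMUSG00000042453) lies on chromosome 5 from 22089452 to 22549700, minus strand, and Lhx5 (ENSMUSG00000029595) on the same chromosome from 120569764 to 120579288, plus strand. Trp73 (ENSMUSG00000029026) lies on chromosome 4 from 154140706 to 154224665, minus strand. Lhx1 (ENSMUSG00000018698) spans 84409110 to 84416361 on chromosome 11, minus strand, and Ndnf (ENSMUSG00000049001) spans 65648574 to 65689310 on chromosome 6, plus strand. Calb2 (ENSMUSG00000003657) is on the minus strand of chromosome 8, 110864134 to 110894842. Among the subplate genes, Nr4a2 (ENSMUSG00000026826) is on the minus strand of chromosome 2, 56996842 to 57014015, and Cplx3 (ENSMUSG00000039714) on the minus strand of chromosome 9, 57507275 to 57513564. Ccn2 (ENSMUSG00000019997) and Nxph4 (ENSMUSG00000040258) are both on chromosome 10, at 24471340 to 24474581 on the plus strand and 127361342 to 127370428 on the minus strand. Of the members, 4 share exon bases with a gene on the opposite strand, and it is not known here if reads were counted by strand. The largest overlap is 665 bases of Ccn2 with Gm15270, which had 15 to 54 counts per library. Lhx5, which had only 20 to 128 counts itself, shares 69 bases with Gm27199, which had 1 to 23 counts per library.

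Promoter windows of 250 bases before the start site were available from RefSeq (GRCm38.p6) for 5 of the 10 members, Reln, Trp73, Lhx1, Nr4a2 and Cplx3, with 2 windows for Trp73. Shown here are Trp73 and Lhx1, transcription factor genes of Cajal-Retzius cells whose summed values in cKO animals all lay above the controls, and Cplx3, whose values lay below. None of the 3 passed the test in that comparison. Each is written on the minus strand, 5′ to 3′, and capitals mark matches to CANNTG (the E-box, bound by bHLH factors such as the Cajal-Retzius factors Nhlh1 and Nhlh2) or GGGCGG (the GC box) on either strand. The Trp73 windows are at chr4:154097174-154097423 (the inner start) and chr4:154139876-154140125 (the outer start), the Lhx1 window is at chr11:84525535-84525784 and the Cplx3 window at chr9:57606282-57606531.
Trp73 inner: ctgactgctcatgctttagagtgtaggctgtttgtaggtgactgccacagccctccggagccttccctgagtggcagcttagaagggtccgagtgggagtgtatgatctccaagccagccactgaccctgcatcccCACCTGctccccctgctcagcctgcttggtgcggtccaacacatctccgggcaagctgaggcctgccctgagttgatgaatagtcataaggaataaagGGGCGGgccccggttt
Trp73 outer: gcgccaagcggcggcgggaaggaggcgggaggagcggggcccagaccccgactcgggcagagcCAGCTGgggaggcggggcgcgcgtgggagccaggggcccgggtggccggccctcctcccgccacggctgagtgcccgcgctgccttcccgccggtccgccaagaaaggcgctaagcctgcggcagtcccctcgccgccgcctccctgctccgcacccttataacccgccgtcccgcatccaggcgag
Lhx1: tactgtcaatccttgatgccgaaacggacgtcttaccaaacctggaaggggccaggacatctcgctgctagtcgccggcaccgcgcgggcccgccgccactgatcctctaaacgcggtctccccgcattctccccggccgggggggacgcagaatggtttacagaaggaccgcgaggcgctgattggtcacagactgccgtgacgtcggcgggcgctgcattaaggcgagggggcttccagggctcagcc
Cplx3: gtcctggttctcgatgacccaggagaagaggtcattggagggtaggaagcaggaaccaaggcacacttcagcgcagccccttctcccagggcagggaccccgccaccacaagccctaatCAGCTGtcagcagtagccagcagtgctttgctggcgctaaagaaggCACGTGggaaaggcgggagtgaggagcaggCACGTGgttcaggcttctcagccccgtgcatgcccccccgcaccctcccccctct

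The outer Trp73 window is 77.2% G and C and the inner one 58.4%, beside a median of 52.4% over the 32841 windows of the table, while Lhx1 has 64.8% and Cplx3 62.8%. The letters CANNTG occurred 3 times in the Cplx3 window, once in each Trp73 window and not in the Lhx1 window, and they are present in 66.2% of all windows. The letters GGGCGG occurred once in the inner Trp73 window and are present in 32.7% of all windows. The homeodomain core TAATTA, found in 4.84% of all windows, was in none of the 6 windows of the members. Trp73 has transcripts from both starts, giving the full-length TAp73 and the shorter ΔNp73 proteins, and the deposited counts per gene do not separate them.

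Levels were first compared between genes within a group, per kilobase of exon. In cKO caudal libraries Nr4a2 had the highest mean at 23.8 CPM per kb, followed by Calb2 at 18.5, Reln at 16.1, Ndnf at 7.44 and Ccn2 at 6.65 CPM per kb. Control caudal libraries gave 28.9 CPM per kb for Nr4a2, 19.2 for Calb2, 14.2 for Reln, 7.49 for Ccn2 and 5.76 for Ndnf. The ranges of neighbouring genes did not overlap among these 5 in control caudal libraries, whereas the first 3 overlapped in cKO caudal libraries, as did Ndnf and Ccn2. In rostral libraries Nr4a2 was at 16.6 CPM per kb in cKO animals, the highest mean of the 10, and at 3.76 in control animals, where Reln led with 12.02. At the other end, Trp73, Lhx5 and Lhx1 were the lowest 3 genes in that order in all 4 groups. Lhx1 was at 0.478 CPM per kb in cKO caudal and 0.292 in control caudal libraries, and the ranges of Lhx5 and Lhx1 overlapped in each group but control rostral.

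**Figure D1:**
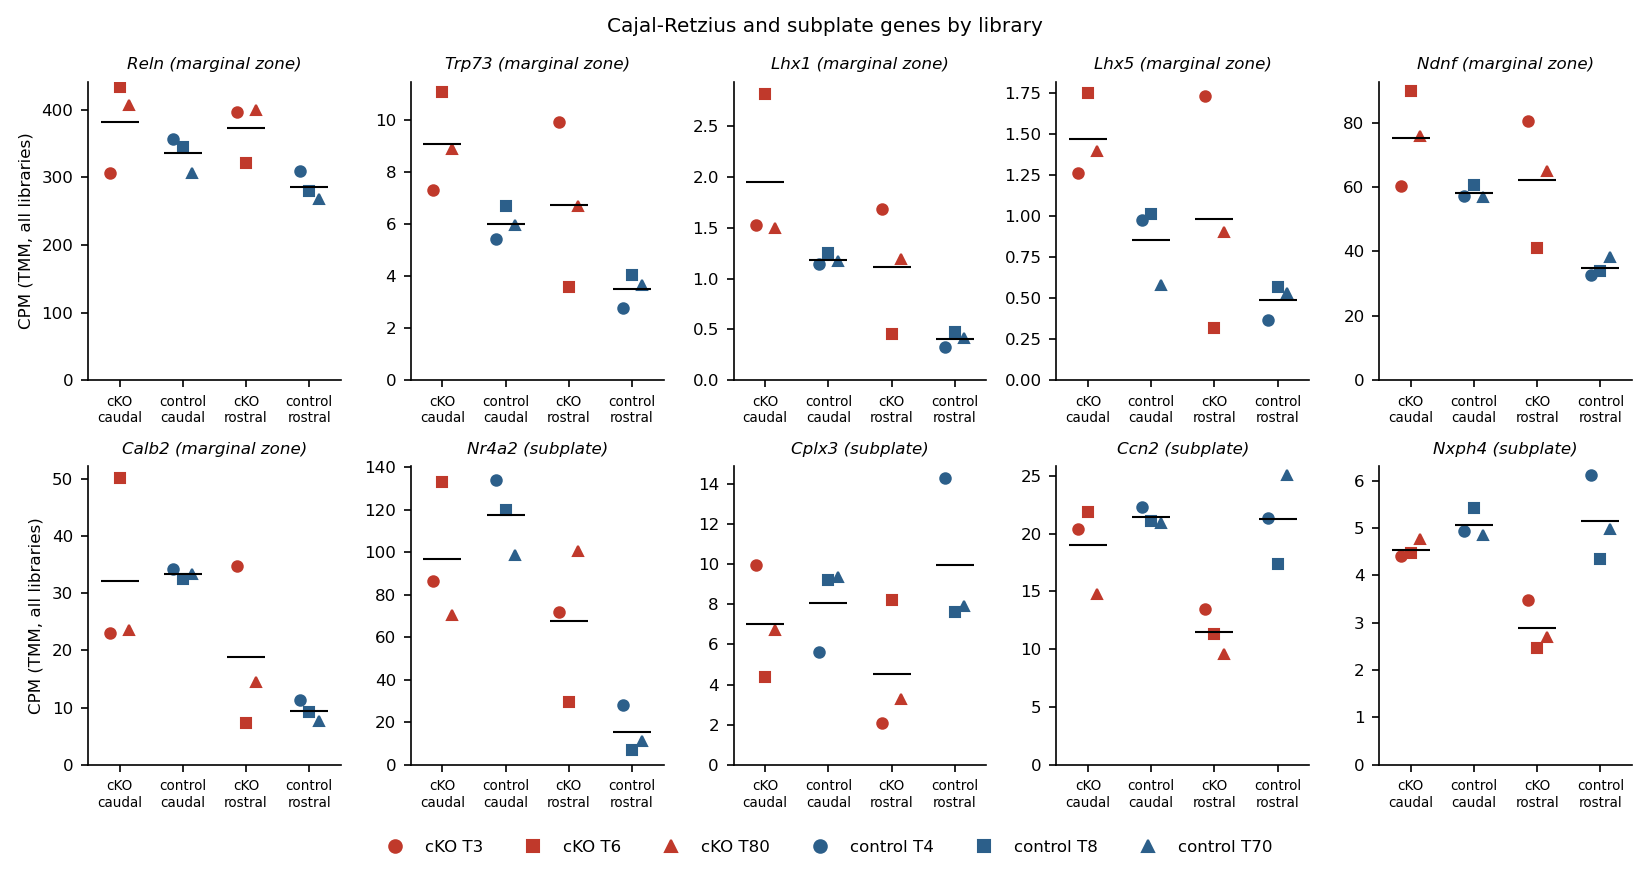
CPM (TMM scaling over all 12 libraries, linear axis from 0) of each gene, with 1 point per library, cKO in red, control in blue, 1 marker shape per animal and a bar at the mean of the 3 libraries. Ndnf and Trp73 have their highest group mean in cKO caudal libraries and their lowest in control rostral ones, and the 3 cKO rostral values of Ccn2 and Nxph4 lie below those of all other groups.

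With the pieces of each animal summed, 5 of the 6 marginal-zone genes had all 3 cKO animals above all 3 control animals, and 3 of the 4 subplate genes had all 3 below. Ndnf was the only one of the 10 to pass the threshold of 0.05 on the adjusted p, and it rose in cKO animals. That threshold was passed by 0.179% of the 22924 genes tested, or 41 genes, 0.0829% as higher and 0.096% as lower. Groups that do not overlap were common, at 11.8% of genes higher in cKO animals, 14.3% lower and 26% in either direction, beside 8 of the 10 members. An unadjusted edgeR p under 0.05 was reached by 8 of the 10 members and by 15.4% of all genes. The median log2 fold change, cKO over control, was 0.63 for the marginal-zone genes, -0.49 for the subplate genes and 0.02 for all genes tested.

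Reln encodes reelin itself. Its summed level was 366, 366 and 404 CPM in cKO animals T3, T6 and T80, against 339, 314 and 288 CPM in control animals T4, T8 and T70. The groups were separate but close, at log2 0.28 (SE 0.08, adjusted p = 0.220). Reln is also made by interneurons, so its level is not a measure of Cajal-Retzius cells alone.

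Trp73, Lhx1 and Lhx5 encode transcription factors of Cajal-Retzius cells. Trp73, whose loss in mice depletes these cells, was at 9.02, 7.03 and 7.87 CPM in cKO animals and at 4.40, 5.40 and 4.83 CPM in control animals. The lowest cKO animal thus lay above the highest control, at log2 0.72 (SE 0.13, adjusted p = 0.0978). Lhx1, a LIM homeodomain factor, was at 1.64, 1.56 and 1.36 CPM in cKO animals and 0.825, 0.869 and 0.801 CPM in control animals. It had the largest difference of the marginal-zone genes, at 0.87 (SE 0.15, adjusted p = 0.0961), with little spread within either group. Its paralogue Lhx5 was at 1.56, 0.982 and 1.16 CPM in cKO animals and 0.739, 0.794 and 0.555 CPM in control animals. The difference of Lhx5 was 0.83 with a larger SE of 0.23 (adjusted p = 0.209), and T3 stood above the other cKO animals.

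Ndnf encodes a secreted factor made by Cajal-Retzius cells and by neurogliaform interneurons of the cortical surface. It was at 73.3, 63.0 and 70.8 CPM in cKO animals, against 47.8, 47.5 and 47.7 CPM in control animals. The controls were nearly equal, and all 3 cKO animals lay above them (log2 0.54, SE 0.07, adjusted p = 0.0436). The adjusted p was over 0.05 whenever any animal other than T6 was left out (0.0849 to 0.297). The log2 fold change stayed at 0.50 to 0.54 in those 5 fits. The fit without T3, whose pieces scored against their labels, was 1 of these 5, and 39 of 23426 genes passed in it (0.166%). Calb2, the gene of the calcium buffer calretinin, which marks Cajal-Retzius cells and a class of interneurons, was at 30.5, 27.3 and 19.3 CPM in cKO animals and at 25.4, 21.1 and 20.7 CPM in control animals. These groups overlapped (log2 0.20, SE 0.17, adjusted p = 0.551).

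The subplate genes went different ways. Cplx3, a complexin that regulates vesicle release and marks subplate neurons after birth, was at 5.15, 6.18 and 5.10 CPM in cKO animals and at 9.09, 8.47 and 8.66 CPM in control animals. The groups were well apart (log2 fold change -0.66, SE 0.11, adjusted p = 0.0831). Ccn2, a secreted matricellular protein gene also known as a target of YAP, was at 16.3, 16.0 and 12.4 CPM in cKO animals and at 22.04, 19.3 and 23.0 CPM in control animals (log2 -0.52, SE 0.12, adjusted p = 0.176). Nxph4, a neurexophilin, was at 3.86, 3.35 and 3.80 CPM in cKO animals and at 5.43, 4.91 and 4.92 CPM in control animals (log2 -0.46, SE 0.11, adjusted p = 0.176). Both had every cKO animal below every control. Nr4a2, a nuclear receptor of subplate and claustral neurons that neuronal activity also induces, was at 78.1, 77.5 and 84.8 CPM in cKO animals and at 92.6, 64.3 and 55.3 CPM in control animals. Its cKO values lay within the span of the controls (log2 0.19, SE 0.17, adjusted p = 0.591). In bulk tissue, fewer cells of a type and less RNA per cell cannot be told apart.

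**Figure D2:**
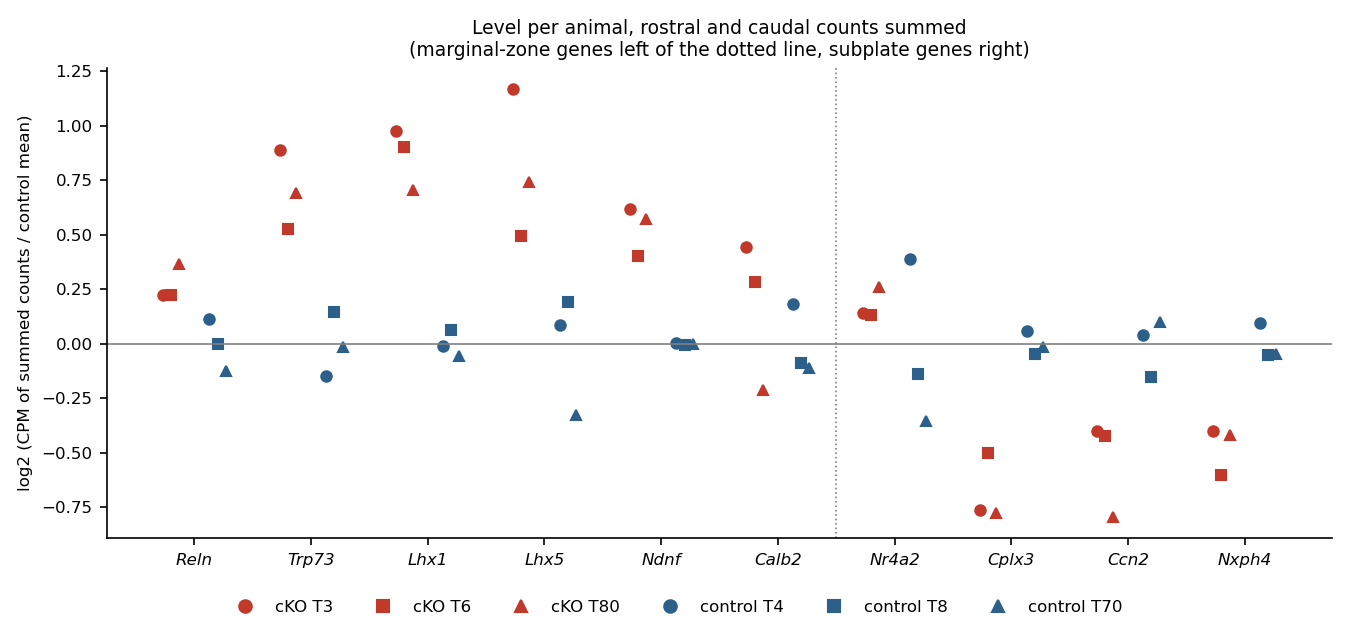
Level of each gene per animal, as log2 of the CPM of summed caudal and rostral counts over the mean of the 3 controls, with cKO animals in red left of control animals in blue. The marginal-zone genes other than Calb2 have all cKO points above the control points, Cplx3, Ccn2 and Nxph4 have them below, and Calb2 and Nr4a2 overlap.

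Markers of region and of neighbouring tissue were read in the same sums. The region score of the summed counts was 0.76, 0.62 and 0.731 in cKO animals T3, T6 and T80 and 0.695, 0.514 and 0.535 in control animals T4, T8 and T70, which overlap. The summed level of 12 hippocampal genes was 948, 1013 and 826 CPM in cKO animals and 782, 772 and 743 CPM in control animals, with no overlap. Zbtb20 made up most of that gap, at 342 CPM in cKO animals and 214 CPM in control animals on average, and of the 12 genes 7 were higher and 5 lower with a median of 0.12 and none past the threshold. Caudal libraries gave 37.8%, 43.5% and 52.2% of the counts of the cKO animals and 60.0%, 49.1% and 49.4% of those of the control animals. The part of these differences in the members' values was not tested.

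Without T6, 4 of the 10 passed in the summed comparison: Trp73 (log2 0.80, adjusted p = 0.0149), Lhx1 (0.85, adjusted p = 0.0364) and Ndnf (0.60, adjusted p = 0.0011) as higher, and Cplx3 (-0.77, adjusted p = 0.0072) as lower, beside 685 of 23432 genes (2.92%). With any other animal left out instead, Ndnf did not pass. DESeq2 called 7 of the 10 on the sums of all animals, beside 803 of 22924 genes (3.5%). The 7 were Trp73, Lhx1, Lhx5 and Ndnf as higher and Cplx3, Ccn2 and Nxph4 as lower.

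Further genes of the same pathway and cell types were read from lists. Of 16 genes of reelin signalling (the receptors, the adaptor Dab1, its kinases and effectors), 6 were higher and 10 lower in summed cKO tissue, none passed the test, and the median log2 fold change was -0.01. The reelin receptor gene Lrp8 was at 239.8 ± 8.82 CPM in cKO animals and 214 ± 2.76 CPM in control animals (SD, n = 3 each; log2 0.17, adjusted p = 0.267). Of 12 other Cajal-Retzius genes, 9 were higher and 3 lower, none passed, and the median was 0.33. The bHLH factor gene Nhlh2 came nearest, at 8.06 ± 1.19 CPM in cKO animals and 4.12 ± 0.688 CPM in control animals (SD, n = 3 each; log2 0.98, adjusted p = 0.0823). Cxcr4, the receptor that holds Cajal-Retzius cells beneath the meninges, was at 17.0 ± 2.47 CPM in cKO animals and 11.9 ± 1.19 CPM in control animals (SD, n = 3 each; log2 0.52, adjusted p = 0.179). Among 18 other subplate genes, 7 were higher and 11 lower with a median of -0.05 and no gene past the threshold. Drd1, a dopamine receptor gene of deep-layer and striatal neurons, had the smallest p of these, at 11.6 ± 1.66 CPM in cKO animals and 17.7 ± 2.24 CPM in control animals (SD, n = 3 each; log2 -0.61, adjusted p = 0.143).

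Other gene lists were read beside the members because they share markers with them or belong to neighbouring tissue. The 12 genes of superficial and ganglionic-eminence-derived interneurons, which share Reln, Ndnf and Calb2, gave 9 higher and 3 lower, none past the threshold, with a median of 0.19. The 12 immediate early genes, the class to which Nr4a2 also belongs, gave 11 higher and 1 lower, none past the threshold, with a median of 0.39. The 6 tested YAP target genes, the class that includes Ccn2, gave 2 higher and 4 lower, none past the threshold, with a median of -0.07. The 10 striatal genes were all lower in value, none past the threshold, with a median of -0.98, and their summed level was 83.1 to 87.4 CPM in cKO animals and 85.1 to 241 CPM in control animals. The 10 choroid plexus genes were all higher in value, none past the threshold, with a median of 1.06 and summed levels of 93.6 to 338 CPM in cKO animals and 9.09 to 118 CPM in control animals. Of 12 meningeal genes, which mark the tissue over the Cajal-Retzius cells, 11 were higher and 1 lower, none past the threshold, with a median of 0.43 and summed levels of 509.8 to 1006 CPM in cKO animals and 499.7 to 688 CPM in control animals. Their part in the members' values was not tested.

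In control animals the marginal-zone genes were higher in the caudal piece. Of 12 hippocampal genes, 7 passed as higher there and none as lower, among them Fibcd1, a gene of hippocampal pyramidal neurons, at 26.0 ± 0.934 CPM in the caudal libraries and 4.15 ± 0.419 CPM in the rostral libraries of controls (SD, n = 3 each; log2 2.64, adjusted p = 2.08e-07). Of the 10 members, 4 passed the test between control pieces, Calb2, Ndnf, Lhx1 and Trp73, and all rose in caudal tissue. This threshold was passed by 12.2% of the 20461 genes tested, 6.3% of them higher and 5.88% lower in caudal libraries. The median log2 fold change, caudal over rostral, was 0.79 for the marginal-zone genes, -0.01 for the subplate genes and close to 0 for all genes tested (0.0043).

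Calb2 was at 34.3, 32.5 and 33.5 CPM in the caudal libraries of control T4, T8 and T70 and at 11.4, 9.18 and 7.67 CPM in their rostral libraries. The pieces did not overlap, at log2 1.82 (SE 0.12, adjusted p = 5.99e-05). Ndnf was at 57.3, 60.5 and 56.9 CPM in caudal and 32.8, 33.8 and 38.2 CPM in rostral libraries (log2 0.73, SE 0.06, adjusted p = 6.78e-05). Lhx1 was at 1.14, 1.25 and 1.17 CPM in caudal and 0.329, 0.473 and 0.417 CPM in rostral libraries (log2 1.53, SE 0.21, adjusted p = 0.0010). Trp73 was at 5.43, 6.69 and 5.96 CPM in caudal and 2.78, 4.03 and 3.66 CPM in rostral libraries (log2 0.78, SE 0.14, adjusted p = 0.0059). In all 4 genes, and in Lhx5 and Nr4a2, every caudal library lay above every rostral one. That held for 16.9% of all genes, while 14.4% had every caudal library below and 31.3% were separate in either direction. Lhx5 was barely separate, at 0.579 CPM in its lowest caudal and 0.565 CPM in its highest rostral library (log2 0.80, SE 0.27, edgeR adjusted p = 0.0875). Reln was at 357, 345 and 307 CPM in caudal and 309, 279 and 268 CPM in rostral libraries, higher in the caudal piece of each animal but with ranges that overlap slightly (log2 0.23, SE 0.07, adjusted p = 0.0593).

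Nr4a2 differed most in size, with 134, 120 and 98.5 CPM in control caudal libraries and 28.1, 6.75 and 10.97 CPM in control rostral ones. The fitted fold was 7.71, but the rostral values spread widely (log2 2.95, SE 0.62, adjusted p = 0.0602). Without control T4, whose rostral library was the highest of the 3, Nr4a2 passed (log2 3.62, adjusted p = 0.0152), beside 1690 of 20582 genes (8.21%). The other subplate genes overlapped between control pieces, with log2 fold changes of -0.31 for Cplx3, 0.01 for Ccn2 and -0.03 for Nxph4. Among the other Cajal-Retzius genes, 7 of 12 passed as higher and 1 as lower in caudal tissue, with Ebf2 at a log2 fold change of 2.25 and Nhlh2 at 1.27, while Tbr1, which most deep-layer neurons also express, fell by 0.45. Of the other subplate genes, 3 of 18 passed as higher and 6 as lower, among them Serpini1 at 0.95 and Sox5 at -0.50. With the animal as a block, which the labels' animal numbers allow, 5 members passed, Reln being added at an adjusted p of 0.0112, beside 3144 of 20461 genes (15.4%). In a single fit over all 12 libraries, which shares 1 spread with the cKO libraries, none did (adjusted p 0.132 to 0.342 for the 4 genes), beside 78 of 21599 genes (0.361%).

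**Figure D3:**
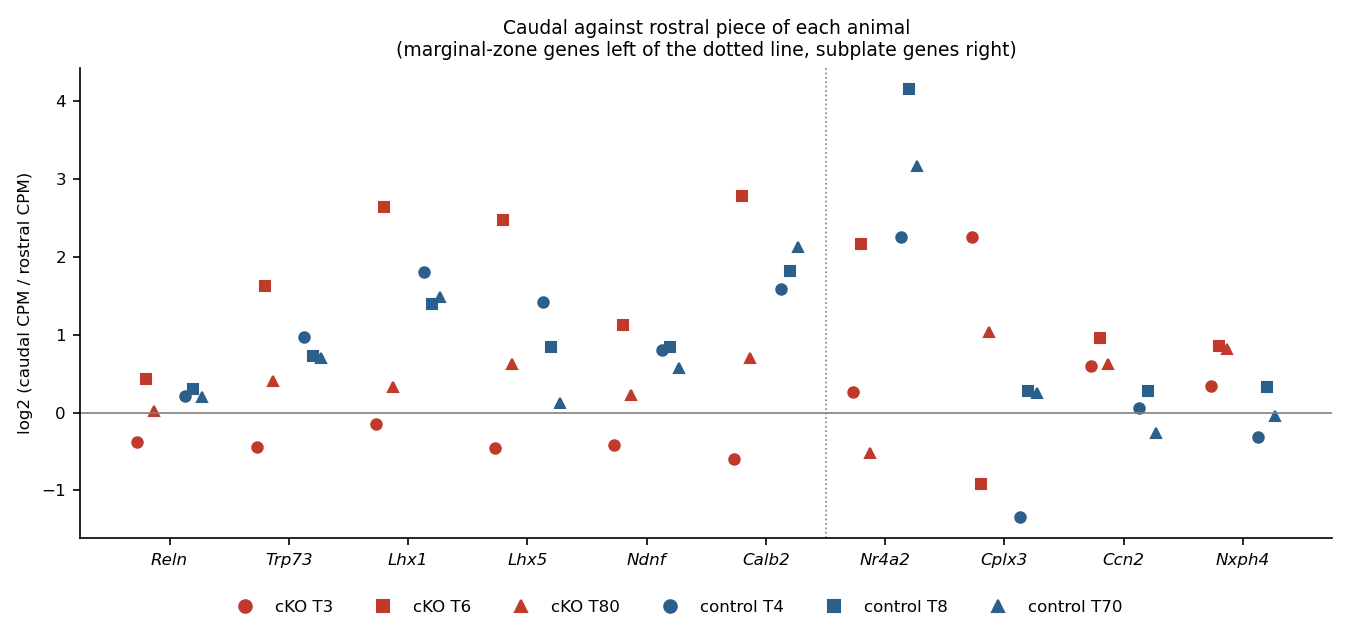
Log2 ratio of caudal to rostral CPM within each animal, cKO in red left of control in blue. All 3 control animals are above 0 for the 6 marginal-zone genes and Nr4a2, and the cKO animals are spread, with T3 below 0 for the 6 marginal-zone genes and T6 above all controls for the same 6.

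In cKO animals no member differed between pieces at the threshold, nor did any of the 20944 genes tested (0%, with 1.66% under an unadjusted p of 0.05). Ccn2 and Nxph4 were the 2 members without overlap, which 2.55% of genes showed as higher and 5.72% in either direction. Ccn2 was at 20.4, 21.9 and 14.8 CPM in the cKO caudal libraries of T3, T6 and T80 and at 13.5, 11.3 and 9.58 CPM in the cKO rostral ones (log2 0.73, SE 0.20, adjusted p = 0.9999). Nxph4 was at 4.40, 4.46 and 4.76 CPM in cKO caudal and 3.47, 2.47 and 2.71 CPM in cKO rostral libraries (log2 0.66, SE 0.20, adjusted p = 0.9999). By the labels both were higher in the caudal piece of each cKO animal. With the pieces of T3 taken the other way round, the groups of either gene would overlap; whether the labels of its pieces were exchanged was not tested. For the marginal-zone genes the animals were at odds: in T3, T6 and T80 the within-animal log2 ratio was -0.44, 1.62 and 0.41 for Trp73, and -0.59, 2.78 and 0.70 for Calb2. The ratio of Cplx3 was 2.25, -0.91 and 1.03 in the same animals, with the opposite sign in T3 and T6 but not in T80.

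Genotype was then compared within each piece. In caudal tissue no member passed, beside 17 of 20705 genes (0.0821%, with 0.0145% higher and 0.0676% lower). Egfr itself did not pass there (log2 -2.05, edgeR adjusted p = 0.102). Trp73 was at 7.32, 11.1 and 8.90 CPM in cKO caudal and 5.43, 6.69 and 5.96 CPM in control caudal libraries (log2 0.61, SE 0.16, adjusted p = 0.201). Lhx1 was at 1.53, 2.82 and 1.502 CPM in cKO and 1.14, 1.25 and 1.17 CPM in control caudal libraries (log2 0.73, adjusted p = 0.292), and Lhx5 at 1.26, 1.75 and 1.39 CPM in cKO and 0.976, 1.01 and 0.579 CPM in control caudal libraries (log2 0.78, adjusted p = 0.261). In these 3 genes and, downward, in Nxph4 the caudal groups did not overlap, which 10.4% of genes showed as higher, 12.6% as lower and 23% in either direction. Nr4a2 was at 86.4, 133 and 70.4 CPM in cKO and 134, 120 and 98.5 CPM in control caudal libraries, and Calb2 at 23.0, 50.1 and 23.6 CPM in cKO and 34.3, 32.5 and 33.5 CPM in control caudal libraries. Both overlapped, with T6 at the top of the cKO group; without T6, Calb2 fell (log2 -0.51, adjusted p = 0.0220), beside 162 of 21082 genes (0.768%). The median log2 fold change in caudal tissue was 0.49 for marginal-zone, -0.18 for subplate and 0.0045 for all genes tested.

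In rostral tissue the log2 fold changes of all 10 members were larger in size than in caudal tissue, though the test of that difference passed for none, and the cKO libraries were more unequal. The medians were 0.98 for marginal-zone, -0.86 for subplate and 0.04 for all genes tested. No member passed, and neither did any of 20599 genes (0%, with 9.49% under an unadjusted p of 0.05 and a lowest adjusted p of 0.186). Egfr itself did not pass in rostral tissue (log2 -2.145, edgeR adjusted p = 0.186), so the absence of a call there says little about a member. Nr4a2 was at 71.9, 29.5 and 101 CPM in cKO rostral libraries of T3, T6 and T80 and at 28.1, 6.75 and 10.97 CPM in control rostral ones. Each cKO library lay above each control one, T6 by little (log2 2.15, SE 0.63, adjusted p = 0.410). Ndnf was at 80.4, 41.0 and 65.1 CPM in cKO and 32.8, 33.8 and 38.2 CPM in control rostral libraries (log2 0.84, SE 0.24, adjusted p = 0.402). Reln was at 397, 321 and 400.4 CPM in cKO and 309, 279 and 268 CPM in control rostral libraries (log2 0.39, SE 0.12, adjusted p = 0.437). Trp73, at 9.95, 3.60 and 6.70 CPM in cKO and 2.78, 4.03 and 3.66 CPM in control rostral libraries, had T3 and T80 above the controls and T6 among them. Lhx1, Lhx5 and Calb2 had the same order of cKO animals. T6 lay among the controls for Lhx1, at 0.453 CPM. It lay below all controls for Lhx5 (0.316 CPM, lowest control 0.365) and Calb2 (7.27 CPM, lowest control 7.67).

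Ccn2 was at 13.5, 11.3 and 9.58 CPM in cKO and 21.4, 17.4 and 25.05 CPM in control rostral libraries (log2 -0.89, SE 0.18, adjusted p = 0.312). Nxph4 was at 3.47, 2.47 and 2.71 CPM in cKO and 6.12, 4.34 and 4.99 CPM in control rostral libraries (log2 -0.83, SE 0.21, adjusted p = 0.368). For these 2 genes all 3 cKO libraries, T6 included, lay below the controls. Cplx3 was at 2.09, 8.20 and 3.29 CPM in cKO and 14.3, 7.64 and 7.91 CPM in control rostral libraries, with T3 and T80 below the controls and T6 among them (log2 -1.14, SE 0.51, adjusted p = 0.533). Of the 10 members 5 had rostral groups without overlap, 3 higher and 2 lower, against 9.05% and 10.7% of all genes, or 19.7% in either direction.

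For most of the members the cKO rostral values moved with the region score of the libraries. The 2 cKO rostral libraries with scores of 0.85 and 0.636, T3 and T80, had high Reln, Trp73, Lhx1, Lhx5, Ndnf, Calb2 and Nr4a2. T6, with a score of -0.0733, was the lowest of the 3 for these genes. Nxph4 was also lowest in T6, at 2.47 CPM, with 3.47 in T3 and 2.71 in T80, but all 3 lay below the controls. Ccn2 did not follow the score, and its lowest value was in T80. Of the genes high in T3 and T80, Trp73, Lhx1, Ndnf and Calb2 had passed between control pieces, and Reln, Lhx5 and Nr4a2 had not. Summed levels of 10 choroid plexus genes in cKO rostral libraries were 402 CPM in T3, 3.55 in T6 and 15.7 in T80, against 4.84 to 6.503 CPM in control rostral libraries, and those of 12 meningeal genes were 844, 72.9 and 901 CPM in cKO and 262 to 482 CPM in control rostral libraries. The meningeal list includes Crym, which cortical neurons express too. No gene of these 2 lists was at 0 in any library. The part of region and of these tissues in the rostral differences was not tested. Without T6, Reln (log2 0.49, adjusted p = 0.0130), Trp73 (1.26, adjusted p = 0.0214), Lhx1 (1.83, adjusted p = 0.0143) and Ndnf (1.07, adjusted p = 0.0069) passed as higher, beside 1058 of 21118 genes (5.01%).

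**Figure D4:**
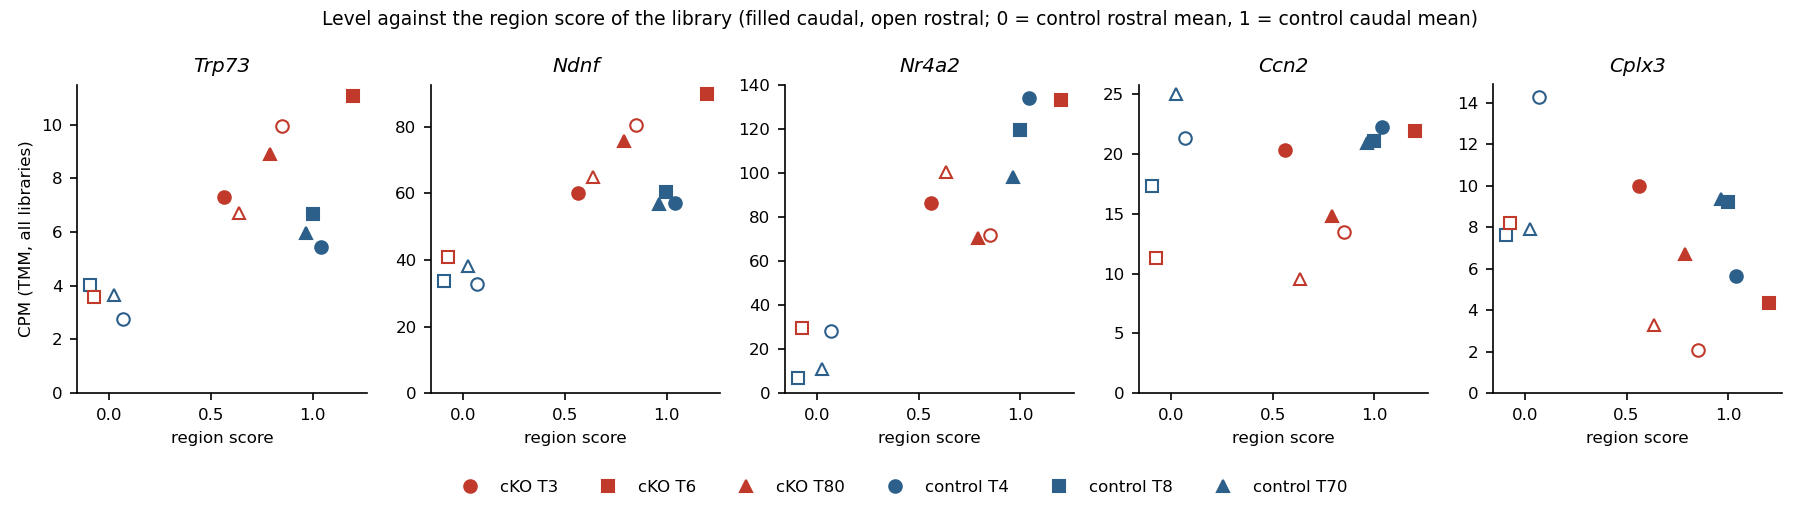
CPM of 5 genes against the region score of each library (0 for the control rostral mean, 1 for the control caudal mean), with caudal libraries filled, rostral libraries open, cKO in red and control in blue. Among cKO rostral libraries, T3 (0.85) and T80 (0.636) lie nearer the control caudal score than the rostral one, and Ccn2 in the cKO libraries does not follow the score as Trp73, Ndnf and Nr4a2 do.

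**Figure D5:**
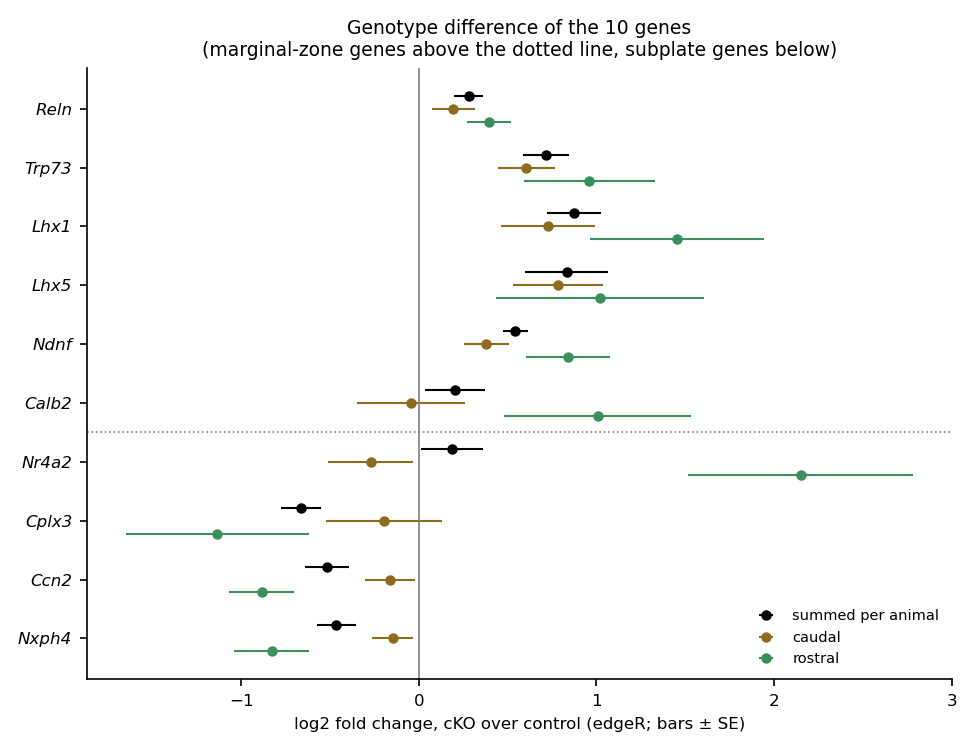
Log2 fold change of each gene, cKO over control, by edgeR, with bars of 1 SE, for the summed counts, the caudal and the rostral libraries. Bars are shortest for the summed counts, Nr4a2 is at 2.15 in rostral and -0.27 in caudal tissue, and Ccn2 is at -0.89 in rostral and -0.16 in caudal tissue.

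Whether the genotype difference itself depended on the piece was tested as the interaction over all 12 libraries, and no member passed, nor did any of 21599 genes (0%, with 3.55% under an unadjusted p of 0.05). The interaction, caudal over rostral in cKO minus the same in control, was -2.42 for Nr4a2 (SE 0.74), 0.73 for Ccn2 (SE 0.24) and 0.68 for Nxph4 (SE 0.23), each at an adjusted p of 0.9997 by edgeR. The unadjusted edgeR p was 0.0075 for Nr4a2, 0.012 for Ccn2 and 0.0122 for Nxph4, the 3 members under 0.05. The within-animal log2 ratios of Nr4a2 were 0.27, 2.17 and -0.52 in cKO T3, T6 and T80 and 2.25, 4.15 and 3.17 in control T4, T8 and T70. The 3 cKO ratios of Nr4a2 lay below those of the controls, by little between T6 (2.17) and T4 (2.25). The share of all genes with such a separation of ratios was not computed. Without T6, Lhx1 (-1.45, adjusted p = 0.0375) and Ndnf (-0.82, adjusted p = 0.0258) passed, beside 475 of 21907 genes (2.17%). The cKO animals in that fit had region scores of 0.85 rostral and 0.562 caudal (T3), and 0.636 rostral and 0.79 caudal (T80). By this score, which is made of expression, their pieces thus did not differ as the control pieces did. Whether the cut of the pieces or the genotype set these scores was not tested. The part of these scores in the interaction was not tested either.

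The genes whose pattern over the 12 libraries was most like that of Trp73 were Hk2, Fbln2, Cxcr4, Galnt15 and Gsap, among 13845 candidates with a mean of at least 1 CPM. Their mean absolute difference from Trp73, in centred log2 CPM, was 0.153 to 0.175, beside a mean absolute deviation of 0.468 of Trp73 around its own mean. For Cplx3 the nearest were Efhc2, Barx2, Gipc2, Arhgap15 and Fndc5 at 0.349 to 0.354, beside its own deviation of 0.53, so that no gene followed Cplx3 as closely as Hk2 followed Trp73. Each likeness is a description over libraries that share animals and pieces.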

How the data were processed

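The deposited tables hold expected counts per gene, not plain read counts: between 9.69% and 14.3% of values per library had a fraction. The tools were STAR 2.7.8a and featureCounts 2.0.3, with GRCm39, per the submitters' processing notes. The annotation release, strand option and multimapping rule were not given in the sources used here, so overlapping and antisense genes may not be told apart. Whole counts had been planned for; the values were rounded and the planned tests kept.

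Each comparison was fitted on its own groups (all 12 libraries for the interaction) with edgeR 4.0.16 in R 4.3.3: filterByExpr, TMM scaling and the robust quasi-likelihood F test, with Benjamini-Hochberg adjustment over all genes tested and a threshold of 0.05. The SE was taken as |log2 fold change| over √F. CPM values per library were computed with TMM scaling over all 12 libraries, and those per animal from summed counts. The region score projects log2(CPM + 1) on the difference between the control pieces. Likeness used log2(CPM + 0.5). The rostral, summed, control-region and interaction fits were tested on simulated data with the same spread for every gene and library. That setting does not cover the unequal cKO libraries.

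Pieces with the same T number come from 1 animal per the labels, so the numbers pair the libraries. Over 16030 genes, the deviations of both pieces from their group means had r of 0.0229, -0.0293 and 0.618 in cKO T3, T6 and T80, and of 0.449, 0.463 and 0.558 in control T4, T8 and T70. The region and interaction fits leave the pairing out, and the fit with the animal as a block was an alternative.

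The members and the gene lists were chosen with earlier results of these data known. Named were all members, Egfr, up to 4 genes with the smallest p of a list, and the 5 genes nearest to Trp73 and to Cplx3. Ebf2, Fibcd1, Cxcr4 and the other list genes follow that rule. Alternatives were DESeq2 1.42.0, RLE scaling, other filters, voom quality weights (limma 3.58.1), 1 fit over all libraries, leaving out each animal and the block. The mean of both pieces' log2 CPM with limma was added after seeing the data.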

Additional observations from a re-analysis of the deposited data

How the results depend on the processing

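Of the member values under all alternatives, 603 kept their direction and their side of the threshold, 11 were no longer past it, 43 were newly past it and 19 changed sign. The number of the 10 genes past the threshold in rostral tissue was 0 as reported, 3 with DESeq2, 6 with voom quality weights and 0 to 4 with an animal left out. In caudal tissue it was 0 as reported, 1 (Trp73) with DESeq2 and without a filter on low counts, and 0 to 1 with an animal left out. On summed counts it was 1 as reported, 7 with DESeq2, 5 without a filter, 5 with quality weights, 0 with the mean of both pieces (Ndnf log2 0.57, adjusted p = 0.0561) and 0 to 4 with an animal left out. Between control pieces it was 4 as reported, 0 in 1 fit over all 12 libraries and 3 to 5 with an animal left out. Trp73 missed the threshold there without T70 (adjusted p = 0.0548). For the interaction it was 0 as reported, 1 with quality weights (Nr4a2 -3.23, adjusted p = 0.0283) and 0 to 2 with an animal left out. Between cKO pieces it was 0 in every fit run. The animal as a replicate block left the members at 0 between cKO pieces and for the interaction, and the single call it changed was that of Reln between control pieces.

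Signs changed where values were small. With quality weights Nxph4 was at 0.0097 between control pieces and Reln at -0.0431 between cKO pieces, and with the block the interaction of Lhx5 was 0.0235. With an animal left out, genotype in caudal tissue ranged over -0.51 to 0.14 for Calb2 and -0.54 to 0.0505 for Cplx3. Region in control ranged over -0.57 to 0.25 for Cplx3, -0.11 to 0.16 for Ccn2 and -0.19 to 0.13 for Nxph4. Region in cKO ranged over -0.0586 to 1.64 for Cplx3, -0.15 to 0.22 for Reln, -0.0308 to 0.96 for Trp73, -0.0905 to 0.65 for Ndnf, -0.0736 to 1.77 for Calb2 and -0.13 to 1.12 for Nr4a2. The interaction ranged over -0.78 to 0.57 for Lhx5 and -0.81 to 0.18 for Trp73. The cause of these changes was not tested.

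Over all genes the counts past the threshold moved more. In rostral tissue 0 became 394 with DESeq2, 45 without a filter, 920 with quality weights, 101 in 1 fit over all libraries and 0 to 1058 with an animal left out. In caudal tissue 17 became 517, 326, 178, 1 and 0 to 162 under the same alternatives. On summed counts 41 became 803 with DESeq2, 320 without a filter, 632 with quality weights and 1 to 685 with an animal left out. Between control pieces 2492 became 2833 with DESeq2, 3514 without a filter, 3152 with quality weights, 3144 with the block, 78 in 1 fit and 1079 to 1690 with an animal left out. Between cKO pieces 0 became 4 with DESeq2. For the interaction 0 became 14 with DESeq2, 2 without a filter, 137 with quality weights and 0 to 475 with an animal left out. The filter of 1 CPM in 3 libraries gave no value for Lhx5 in the rostral, summed and control-region fits or for Lhx1 in the rostral fit. Depth limits Lhx1 and Lhx5 most, at 18 and 20 counts in their lowest library.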

Other observations

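Eomes, a T-box factor gene of intermediate progenitors, of unipolar brush cells and of olfactory bulb projection neurons, passed the threshold on summed counts and was taken from the list of olfactory bulb genes. It was at 8.88 ± 1.61 CPM in cKO animals and 2.66 ± 0.741 CPM in control animals (SD, n = 3 each; log2 1.75, SE 0.23, edgeR adjusted p = 0.0491). Without control T4, and likewise without control T8, no gene passed as higher on summed counts, so the call of Eomes was lost. The other 5 genes of that list did not pass, and the median of the 6 was close to 0 (-0.0019). The 3 hippocampal genes with the smallest p did not pass in summed tissue. Prox1, a homeobox gene of dentate granule cells, was at 55.5 ± 7.74 CPM in cKO animals and 29.1 ± 3.78 CPM in control animals (SD, n = 3 each; log2 0.94, edgeR adjusted p = 0.0514). Neurod1, a bHLH gene of newly formed granule cells, was at 43.3 ± 5.39 CPM in cKO animals and 28.2 ± 2.47 CPM in control animals (SD, n = 3 each; log2 0.63, edgeR adjusted p = 0.0951). Zbtb20, a hippocampal zinc finger gene, was at 342 ± 51.7 CPM in cKO animals and 214 ± 11.2 CPM in control animals (SD, n = 3 each; log2 0.69, edgeR adjusted p = 0.0823). Of the 12 hippocampal genes 7 were higher and 5 lower in cKO animals, with a median of 0.12.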
